A study of Homo sapiens with 2 samples.

Results

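The AP-1, ATF3 and EGR1 factors described here are 10 of the 58302 genes in a table of RNA-seq counts, chosen by name: FOS, FOSB, FOSL1, FOSL2, JUN, JUNB, JUND, ATF3, EGR1 and MAFF. All 10 had a row, and all 10 had 10 or more reads in at least 1 library, as did 17777 genes of the table. Polyadenylated RNA came from Tu212, a cell line of epithelial origin used to study squamous carcinoma of the head and neck. In the PRMT5 overexpression group the cells had received the plasmid pEZ-PRMT5 for 48 h, and in the vector control group the empty pEZ-vector for 48 h. The sources used here do not say whether the cells were a pool or 1 clone. Each group had 1 library, so no difference below has a replicate check or a test, and what is described is a pair of libraries rather than a condition.

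AP-1 is a dimer of basic leucine zipper proteins, in which a FOS protein pairs with a JUN protein or JUN proteins pair with each other. Growth factors, stress and adhesion switch several of these genes on within minutes through MAP kinases, serum response factor and CREB, which is why they are called immediate early genes. In squamous epithelium AP-1 is known for its part in keratinocyte differentiation, invasion and cytokine expression. ATF3 is a stress-induced basic leucine zipper factor that pairs with JUN proteins. EGR1 is a zinc finger factor induced by several of the same signals, and MAFF is a small MAF protein that lacks an activation domain.

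The PRMT5 overexpression library held 19908258 reads on genes and the vector control library held 14119997. PRMT5, the arginine methyltransferase that was overexpressed, had 5770 reads in the library labelled PRMT5 overexpression and 2068 in the vector control, a log2 ratio of 1.01 after scaling to library size. Levels in CPM, read counts scaled to library size, use TMM factors, and each log2 ratio takes the vector control from PRMT5 overexpression. Each interval is a 95% Clopper-Pearson interval and covers counting error only. The label of an epithelial line was met by all 10 epithelial and squamous markers, with KRT5 at 5077 CPM and 4575 CPM and KRT14 at 1413 CPM and 1262 CPM in PRMT5 overexpression and vector control. Markers of other cells stood below 5 CPM in both libraries apart from COL1A1 and CD68. Of 8 fibroblast markers 5 had 10 or more reads in a library, and all 5 were lower in PRMT5 overexpression, with COL1A2 at 7 and 26 reads and DCN at 0 and 12 reads. The 8 summed to 81.2 CPM in PRMT5 overexpression and 98.5 CPM in the vector control, nearly all from COL1A1. The 6 leukocyte markers, 2 of them with 10 or more reads in a library, summed to 17.1 CPM and 21.9 CPM. Nearly all of this came from CD68, at 16.2 CPM in PRMT5 overexpression and 20.1 CPM in the vector control. The log2 ratio of CD68 was -0.30, or 0.32 once summed with AC016876.2 and AC016876.1, which share its exon bases. The 4 endothelial markers, 1 of them with 10 or more reads, summed to 3.50 CPM and 4.77 CPM. The leukocyte marker PTPRC had 4 reads in PRMT5 overexpression and 0 in the vector control, and the endothelial markers CDH5 and KDR had 0 in both. Their part in the results on the 10 factors was not tested.

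The factors that stood farthest apart between the libraries were ATF3, which was higher in PRMT5 overexpression, and MAFF, which was lower. Windows at some of their starts are shown because the gene-level counts of both join transcripts from several starts. ATF3 has 11 annotated transcripts and MAFF has 8, and the windows need not hold every start or the most used one. The windows run 250 bases before to 50 bases after a RefSeq start (GRCh38.p14), 5′ to 3′ on the gene's strand. JUN is added because its window holds the same 8 letters as the first ATF3 window. Capitals mark the motifs TGACGTCA, TGACATCA and TATAAA.
ATF3, start 1, chr1:212565157-212565456, plus strand: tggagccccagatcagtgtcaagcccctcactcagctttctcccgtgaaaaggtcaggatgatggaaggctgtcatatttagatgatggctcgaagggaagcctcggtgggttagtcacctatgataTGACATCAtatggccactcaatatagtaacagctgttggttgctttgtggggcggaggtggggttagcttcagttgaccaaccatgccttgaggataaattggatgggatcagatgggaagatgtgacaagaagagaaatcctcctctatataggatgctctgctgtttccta
ATF3, start 2, chr1:212614768-212615067, plus strand: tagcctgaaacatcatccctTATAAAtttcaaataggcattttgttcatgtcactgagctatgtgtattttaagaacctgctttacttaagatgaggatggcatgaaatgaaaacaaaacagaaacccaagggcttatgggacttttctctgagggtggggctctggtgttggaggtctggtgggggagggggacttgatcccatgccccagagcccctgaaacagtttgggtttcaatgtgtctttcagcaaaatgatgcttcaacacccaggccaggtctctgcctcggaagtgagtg
MAFF, start 1, chr22:38201744-38202043, plus strand: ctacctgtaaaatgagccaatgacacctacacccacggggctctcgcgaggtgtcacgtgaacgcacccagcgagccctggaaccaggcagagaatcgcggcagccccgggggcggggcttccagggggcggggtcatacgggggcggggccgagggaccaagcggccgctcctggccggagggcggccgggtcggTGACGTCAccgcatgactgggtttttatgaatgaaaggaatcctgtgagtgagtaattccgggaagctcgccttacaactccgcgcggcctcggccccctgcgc
MAFF, start 2, chr22:38202770-38203069, plus strand: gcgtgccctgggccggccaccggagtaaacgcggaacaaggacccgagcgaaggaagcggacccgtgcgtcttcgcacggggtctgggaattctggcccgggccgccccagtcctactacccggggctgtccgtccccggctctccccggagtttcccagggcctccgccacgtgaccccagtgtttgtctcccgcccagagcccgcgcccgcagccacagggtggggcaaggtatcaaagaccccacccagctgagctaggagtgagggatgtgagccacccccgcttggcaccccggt
JUN, chr1:58783998-58784297, minus strand: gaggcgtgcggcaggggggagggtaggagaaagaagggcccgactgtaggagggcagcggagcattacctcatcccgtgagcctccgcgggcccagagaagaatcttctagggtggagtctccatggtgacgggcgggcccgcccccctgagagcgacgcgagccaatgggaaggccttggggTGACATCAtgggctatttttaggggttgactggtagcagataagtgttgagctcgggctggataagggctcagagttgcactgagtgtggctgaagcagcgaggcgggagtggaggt

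Windows were found for 9 of the 10 factors, 11 in all, and none for FOSL1. Both strands were searched. TGACGTCA, the full cAMP response element, lay 54 bases before the first MAFF start and 200 bases before the JUND start, and 1.85% of all 35116 windows hold it. TGACATCA lay 123 bases before the first ATF3 start and 67 bases before the JUN start, and 2.61% of all windows hold it. The EGR1 window held a CArG box, the site of serum response factor, at 105 bases (CCATATTAGG) and at 83 bases (CCATATATGG) before the start, a motif found in 1.29% of all windows. TGANTCA, the AP-1 site, was found in the FOSL2 window alone among the 11, with TGACTCA from base 5 after the start, and in 7.71% of all windows. TATAAA was found in 4 of the 11 windows and in 11.5% of all windows. It lay 33, 30 and 31 bases before the starts of FOS, FOSB and JUNB, but 230 bases before the second ATF3 start. TGACG, which TGACGTCA contains, was found in 8 of the 11 windows and in 24.6% of all windows. Each of the 9 genes but ATF3 had such a window, and no ATF3 sequence outside its windows was searched. TGACGCA and the EGR sites GCGTGGGCG and GCGGGGGCG were found in 0 of the 11 windows, and in 2.47%, 0.795% and 5.07% of all. TGACATCA and TGACG were added to the search after the windows had been read, and a match of letters describes the window and shows no binding.

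ATF3, the stress-induced factor, lies on chromosome 1 from 212565334 to 212620777. It had 486 reads in PRMT5 overexpression and 165 in the vector control, or 24.7 CPM against 11.6 CPM. The level was 2.12-fold higher in PRMT5 overexpression, with a log2 ratio of 1.09 (interval 0.83 to 1.35). In RNA from bulk cells, a change in how many cells carry a transcript and in its amount per cell cannot be told apart. MAFF lies on chromosome 22 from 38200767 to 38216511 and had 96 reads in PRMT5 overexpression and 210 in the vector control, or 4.87 CPM against 14.7 CPM. It was 3.0-fold lower in PRMT5 overexpression, with a log2 ratio of -1.58 (interval -1.96 to -1.24). Neither gene shares exon bases with another gene of GENCODE release 29. The other values deposited, FPKM, were 2.51 in PRMT5 overexpression and 1.20 in the vector control for ATF3, and 0.404 and 1.24 for MAFF. On log2(FPKM + 1), computed here, the differences kept their direction, at 0.67 for ATF3 and -0.68 for MAFF. They were smaller there because the added 1 shrinks low values.

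Only ATF3 among the 10 factors was at least 2-fold higher, where 2.90% of the 17777 genes were, and only MAFF was at least 2-fold lower, where 1.94% were. The counts were the same at 1.5-fold, 1 of 10 in each direction, beside 7.06% of all genes higher and 5.33% lower. Genes with few reads vary most, so each gene was also set beside those whose mean reads lay within 2-fold of its own. Of 4800 such genes 50, or 1.04%, lay at least as far from 0 as ATF3. Of 3412 such genes 34, or 0.996%, lay at least as far from 0 as MAFF. No other factor came near these shares, the next being JUN, with 16.8% of 5185 genes at least as far from 0.

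**Figure D1:**
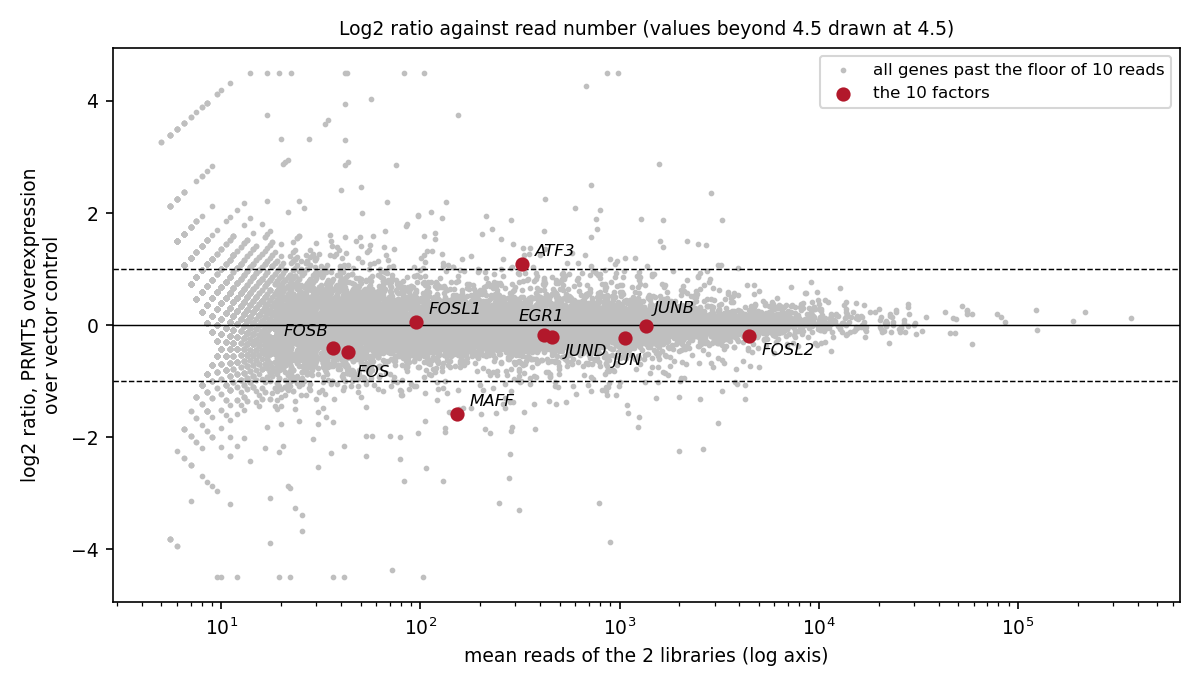
Log2 ratio of PRMT5 overexpression over vector control for each of 17777 genes (grey) and the 10 factors (red), against the mean reads of the libraries on a log axis; dashed lines mark 2-fold. ATF3 at 1.09 and MAFF at -1.58 lie outside the lines, and the other 8 factors lie between -0.49 and 0.05.

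The JUN genes encode the partners that every AP-1 dimer of the FOS type needs. JUN (chromosome 1, 58780788 to 58784327), the most potent activator of the family, had 1150 reads and 58.3 CPM in PRMT5 overexpression and 974 reads and 68.3 CPM in the vector control, and the log2 ratio was -0.23 (interval -0.35 to -0.10). JUND (chromosome 19, 18279760 to 18281622), the member that is expressed in most resting cells, had 498 reads and 25.3 CPM in PRMT5 overexpression and 420 reads and 29.5 CPM in the vector control, and the log2 ratio was -0.22 (interval -0.41 to -0.03). JUNB (chromosome 19, 12791496 to 12793315), which can oppose JUN at some promoters, had 1566 reads and 79.4 CPM in PRMT5 overexpression and 1142 reads and 80.1 CPM in the vector control, with a log2 ratio of -0.01 (interval -0.12 to 0.10) that became 0.01 with DESeq2 size factors. JUNB shares 259 exon bases with HOOK2 on the opposite strand, and summed with HOOK2 its log2 ratio was again -0.01. JUN and JUND were thus lower in PRMT5 overexpression by a similar small ratio, and the interval of JUNB held 0.

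The FOS genes encode the partners that do not pair with each other and differ in how strongly they activate transcription. FOSL2 (chromosome 2, 28392448 to 28417312), which encodes FRA2, was the FOS gene with the most reads. It had 4897 reads and 248 CPM in PRMT5 overexpression and 4049 reads and 284 CPM in the vector control, a log2 ratio of -0.19 (interval -0.25 to -0.13). FOSL1 (chromosome 11, 65892049 to 65900573), which encodes FRA1, a factor often high in invasive carcinoma lines, had 112 reads in PRMT5 overexpression and 78 in the vector control. The levels were 5.68 CPM and 5.47 CPM, with a log2 ratio of 0.05 (interval -0.38 to 0.49), and 3.70% of the stretches tested in its transcript also occur in FOSL1P1.

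FOS and FOSB, the members with the strongest activation domains and the shortest-lived RNA, had the fewest reads of the 10 in both libraries. FOS (chromosome 14, 75278774 to 75282230) had 43 reads and 2.18 CPM in PRMT5 overexpression and 44 reads and 3.09 CPM in the vector control, and the log2 ratio was -0.49 (interval -1.14 to 0.14). FOSB (chromosome 19, 45467995 to 45475179) had 37 reads and 1.88 CPM in PRMT5 overexpression and 36 reads and 2.52 CPM in the vector control, and the log2 ratio was -0.42 (interval -1.13 to 0.28). With so few reads, neither no difference nor a 2-fold lower level of FOS or FOSB lay outside counting error.

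EGR1 (chromosome 5, 138465490 to 138469315), the zinc finger factor, had 458 reads and 23.2 CPM in PRMT5 overexpression and 376 reads and 26.4 CPM in the vector control, with a log2 ratio of -0.18 (interval -0.38 to 0.02, which holds 0). Over all 10 factors 8 had a log2 ratio below 0 and 2 above, with a median of -0.21. Of all 17777 genes 8814 lay below 0, and their median was 0.0022. Without ATF3 and MAFF the median of the other 8 was again -0.21. The counting interval lay wholly below 0 for FOSL2, JUN, JUND and MAFF, 4 of 10, and wholly above 0 for ATF3, 1 of 10. Among all genes 14.3% had an interval wholly below 0 and 14.3% wholly above. The factors as a group hold more reads than most genes, and an interval narrows with reads, so these counts are a description only.

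**Figure D2:**
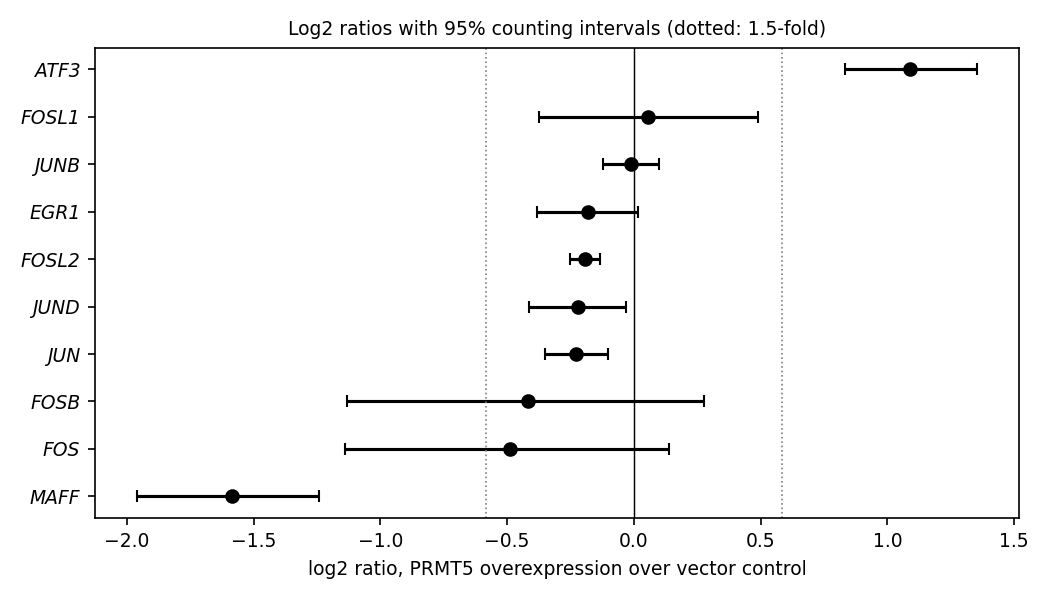
Log2 ratio of PRMT5 overexpression over vector control for each factor (point) with its 95% counting interval (bar); dotted lines mark 1.5-fold. The intervals of ATF3 (0.83 to 1.35) and MAFF (-1.96 to -1.24) lie beyond 1.5-fold, those of FOSL2, JUN and JUND lie below 0 and within 1.5-fold, and the other 5 hold 0.

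Levels of different genes were compared as CPM per kb of merged exons, since longer genes collect more reads. On that scale JUNB was highest in both libraries, at 43.6 in PRMT5 overexpression and 44.0 in the vector control, followed by FOSL2 at 34.7 and 39.7. JUN stood at 16.5 in PRMT5 overexpression and 19.3 in the vector control, JUND at 13.6 and 15.8, and EGR1 at 7.40 and 8.40. These 5 factors kept the same order in both libraries, and the order below them changed. ATF3 was the sixth in PRMT5 overexpression, at 6.10, and the seventh in the vector control, at 2.86, next to FOSL1 at 3.01 and 2.90. MAFF stood at 0.867 in PRMT5 overexpression and 2.62 in the vector control, eighth in both, with FOS at 0.674 and 0.953 and FOSB at 0.338 and 0.455 at the foot. By exact 95% Poisson intervals of the reads, the neighbours whose order was not resolved were ATF3 (2.44 to 3.34), FOSL1 (2.29 to 3.62) and MAFF (2.28 to 3.0) in the vector control, and MAFF (0.703 to 1.06) and FOS (0.488 to 0.907) in PRMT5 overexpression. Intervals of all other neighbours in the order were apart.

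**Figure D3:**
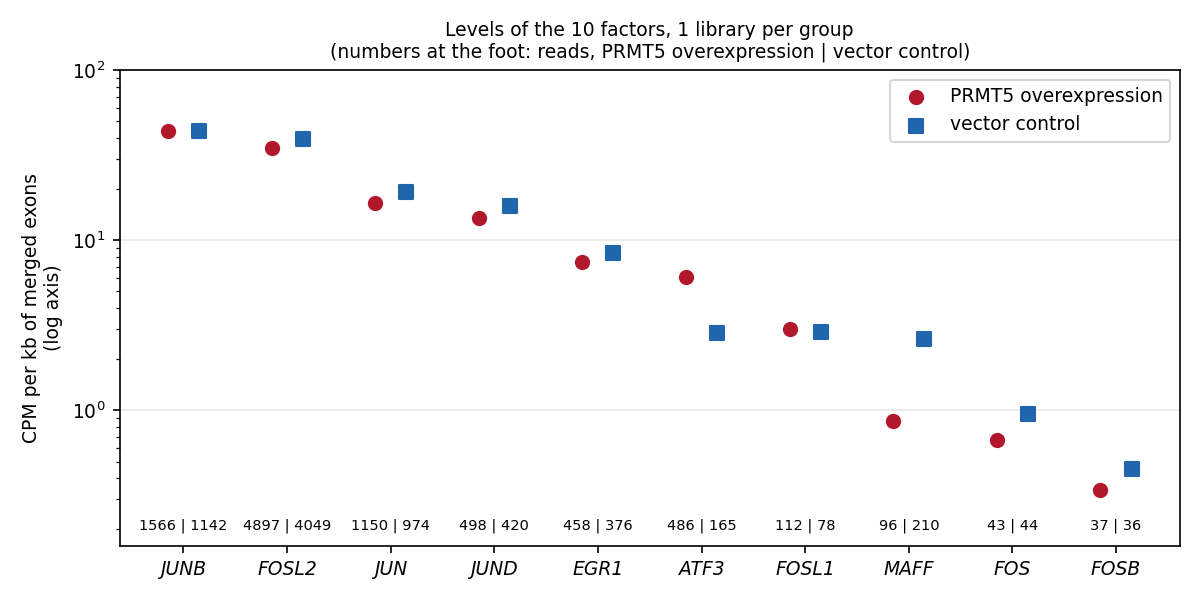
Level of each factor in CPM per kb of merged exons on a log axis, PRMT5 overexpression (red circle) left of vector control (blue square), with the reads of each library at the foot. The squares and circles of JUNB nearly coincide at 43.6 and 44.0, while those of ATF3 (6.10 and 2.86) and MAFF (0.867 and 2.62) stand apart in opposite directions.

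The make-up of the families was computed on the same scale. FOSL2 supplied 89.6% of the FOS family level in PRMT5 overexpression and 90.2% in the vector control, FOSL1 7.77% and 6.59%, FOS 1.74% and 2.17%, and FOSB 0.873% and 1.03%. JUNB supplied 59.2% of the JUN family level in PRMT5 overexpression and 55.6% in the vector control, JUN 22.4% and 24.4%, and JUND 18.4% and 20.0%. By plain reads the share of JUNB was 48.7% in PRMT5 overexpression (Clopper-Pearson interval 47.0% to 50.5%) and 45.0% in the vector control (43.1% to 47.0%). The share of FOSL2 by reads was 96.2% in both, with intervals of 95.7% to 96.7% and 95.6% to 96.8%. RNA of AP-1 was therefore mainly that of FOSL2 and JUNB in both libraries, and the RNA shares say nothing of protein or of dimers.

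**Figure D4:**
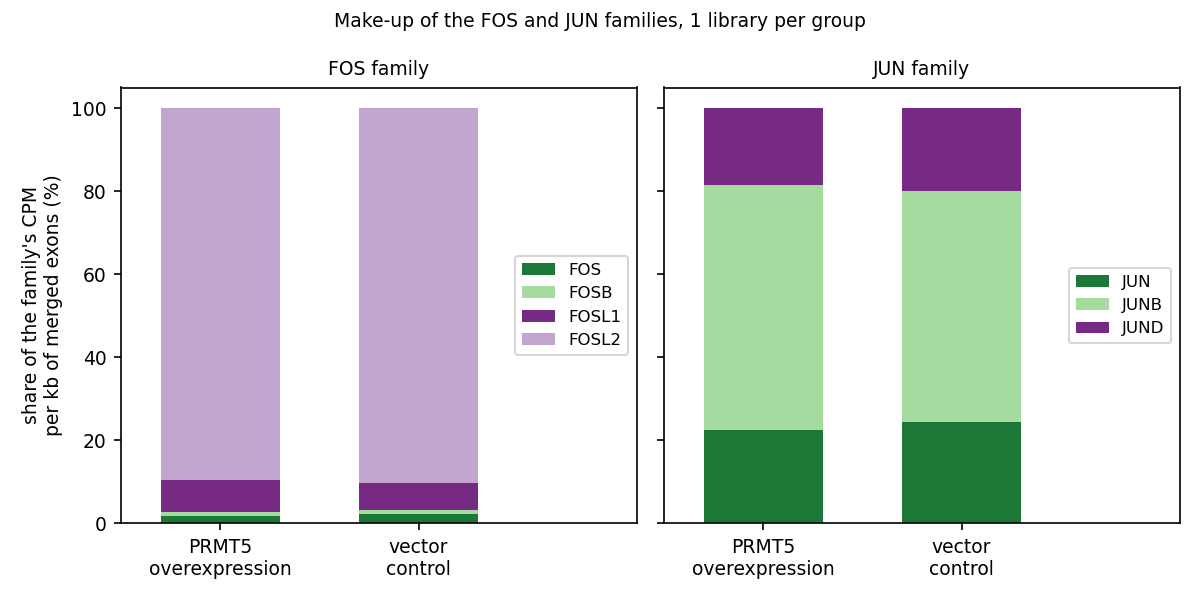
Share of each gene in the summed reads per kb of merged exons of the FOS family (left) and the JUN family (right), with PRMT5 overexpression left of vector control in each panel. FOSL2 takes 89.6% and 90.2% of the FOS family, and JUNB takes 59.2% and 55.6% of the JUN family.

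Other basic leucine zipper genes that can pair with these factors showed 1 of 15 measured genes at 1.5-fold or more higher and 2 lower. Of all genes 7.06% were higher and 5.33% lower by that fold. The median log2 ratio of the 15 was -0.02. The lower genes of the list were MAFG and JDP2, and the higher one was MAFA, with 33 and 15 reads. MAFG, like MAFF a small MAF protein, was at 32.7 CPM in PRMT5 overexpression and 74.1 CPM in the vector control, a log2 ratio of -1.18 (interval -1.33 to -1.04). MAFG shares exon bases with SIRT7 and AC145207.8, and summed with them its log2 ratio was -0.65. The remaining small MAF gene, MAFK, was at 98.7 CPM in PRMT5 overexpression and 92.6 CPM in the vector control, a log2 ratio of 0.09 (interval -0.01 to 0.19). MAFF and MAFG were thus lower and MAFK was not. JDP2, a repressor that pairs with JUN, had 40 reads in PRMT5 overexpression and 51 in the vector control, a log2 ratio of -0.80 (interval -1.45 to -0.19). ATF2 and ATF7, the CRE-binding partners of JUN, had 61.8 CPM and 42.8 CPM in PRMT5 overexpression and 69.1 CPM and 43.5 CPM in the vector control. MAF and CEBPB had log2 ratios of -0.25 and -0.21.

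Of 27 other immediate early genes 24 were measured, with a median log2 ratio of -0.08. By 1.5-fold or more 0 were higher and 2 were lower, beside 7.06% and 5.33% of all genes. The lower ones were MYC, the growth regulator, with 7.71 CPM in PRMT5 overexpression and 114 CPM in the vector control, and PHLDA1, a pleckstrin homology protein, with 155 CPM and 385 CPM. SGK1, a serum-induced kinase, was at 238 CPM in PRMT5 overexpression and 162 CPM in the vector control, a log2 ratio of 0.56, and GADD45B, a stress protein, had a log2 ratio of -0.50. The nuclear receptors NR4A1, NR4A2 and NR4A3 had log2 ratios of 0.07, 0.29 and 0.01, each with an interval that holds 0. IER2 and IER3, short immediate early proteins, had log2 ratios of -0.19 and -0.12, and ZFP36, which speeds the decay of unstable RNA, had -0.45. Of the relatives of EGR1, EGR2 had 15 reads in PRMT5 overexpression and 9 in the vector control, EGR3 had 7 and 0, and EGR4 had 1 and 0.

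Of 19 transcription factors, coactivators and kinases known to act on FOS, JUN or EGR1, all measured, 0 passed 1.5-fold and the median log2 ratio was -0.02. The lowest was RPS6KA1, the ERK-activated kinase RSK1, with 92.4 CPM in PRMT5 overexpression and 122 CPM in the vector control and a log2 ratio of -0.40. Of 23 MAP kinases and their activators 0 passed 1.5-fold either, with a median of -0.06. Every gene of both lists averaged at least 50 reads per library, and of all genes at that depth 2.70% passed 1.5-fold upward and 2.42% downward, so a count of 0 in lists of this size is near the share over all genes. MAPK14, the p38 alpha kinase, was the lowest, with 671 reads in each library and, at the greater depth of PRMT5 overexpression, a log2 ratio of -0.47. MAP3K5, HRAS and MAPK11 had log2 ratios of -0.24, -0.22 and -0.21.

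Among 16 regulators of AP-1 or EGR1 proteins, all measured, 2 were higher and 1 was lower by 1.5-fold or more, with a median of -0.05. All averaged at least 50 reads per library, and of all genes at that depth 2.70% were higher and 2.42% lower. SMARCD1, a SWI/SNF subunit that can bind FOS and JUN, was at 72.7 CPM in PRMT5 overexpression and 44.3 CPM in the vector control, a log2 ratio of 0.71. HDAC3, a histone deacetylase of corepressor complexes, was at 140 CPM in PRMT5 overexpression and 90.7 CPM in the vector control, a log2 ratio of 0.62. NACA, which can act as a JUN coactivator, was at 158 CPM in PRMT5 overexpression and 244 CPM in the vector control, a log2 ratio of -0.63, or -0.54 once summed with PRIM1, which shares its exon bases. The corepressors of EGR1, NAB1 and NAB2, had log2 ratios of -0.06 and 0.04, and COP1, a ubiquitin ligase for JUN, had -0.28.

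Of 30 known AP-1 target genes 27 were measured, and 1 was higher and 5 were lower by 1.5-fold or more, 3.70% and 18.5% of those measured, beside 7.06% and 5.33% of all genes. The median log2 ratio was -0.15, where that of all genes was 0.0022, and 18 of 27 lay below 0, beside 8814 of all 17777 genes. The chemokine CXCL8 was at 19.0 CPM in PRMT5 overexpression and 36.3 CPM in the vector control, a log2 ratio of -0.93 (interval -1.13 to -0.74). The EGF receptor ligand HBEGF had a log2 ratio of -0.59 and was among the 5, while AREG, another ligand of that receptor, had -0.52 and did not reach 1.5-fold. The other 3 lower genes rested on few reads, with IL1B at 17 in PRMT5 overexpression and 29 in the vector control, IL6 at 16 and 19, and DCN at 0 and 12. The interval of IL6 (-1.77 to 0.32) held 0, and DCN is also among the fibroblast markers above. The higher one, TNF, had 11 reads in PRMT5 overexpression and 4 in the vector control. The matrix proteases had ratios on both sides of 0. MMP1 was at 8.47 CPM in PRMT5 overexpression and 8.63 CPM in the vector control, MMP10 had a log2 ratio of -0.23 and MMP13 of 0.19, and MMP3 and MMP9 had at most 3 reads. SPHK1, which makes sphingosine 1-phosphate, had a log2 ratio of 0.48, or 0.06 once summed with PRPSAP1.

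Of 16 known EGR1 target genes 15 were measured, with a median log2 ratio of -0.03. By 1.5-fold or more 1 was higher and 0 were lower, beside 7.06% and 5.33% of all genes. All 15 averaged at least 50 reads per library, and of all genes at that depth 2.70% were higher and 2.42% lower. The higher one was TP73, the p53 family member, with a log2 ratio of 0.71, or 0.14 once summed with TP73-AS1. TGFB1 had a log2 ratio of 0.35, or 0.19 once summed with HNRNPUL1, which shares its exon bases, and GADD45A had -0.35. All 16 targets or partners of ATF3 were measured, a list that holds JUN and JUND. Of these 16 genes 14 lay below 0, beside 8814 of all 17777 genes, and the median was -0.21. Among the 14, the intervals of ATF4, CHAC1 and IL6 held 0. Of the 16 genes 0 were higher by 1.5-fold and 1, IL6, was lower, beside 7.06% and 5.33% of all genes. All but IL6 averaged at least 50 reads per library, where the shares of all genes were 2.70% and 2.42%. The genes above 0 were CCND1, the cyclin of G1 phase, at 349 CPM in PRMT5 overexpression and 273 CPM in the vector control with a log2 ratio of 0.35 (interval 0.30 to 0.41), and HMOX1, a heme-degrading enzyme, at 0.18 (interval -0.22 to 0.60). ATF4, the activator of ATF3 in the integrated stress response, was at 437 CPM in PRMT5 overexpression and 438 CPM in the vector control. DDIT3, the stress factor CHOP, was at 52.8 CPM in PRMT5 overexpression and 75.5 CPM in the vector control, a log2 ratio of -0.52, or -0.02 once summed with MARS and MBD6, which share its exon bases. The other stress response genes TRIB3, PPP1R15A, SESN2, ASNS and CHAC1 had log2 ratios of -0.38, -0.28, -0.14, -0.07 and -0.07. For CHAC1 the counting error (-0.21 to 0.07) spans 0.

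**Figure D5:**
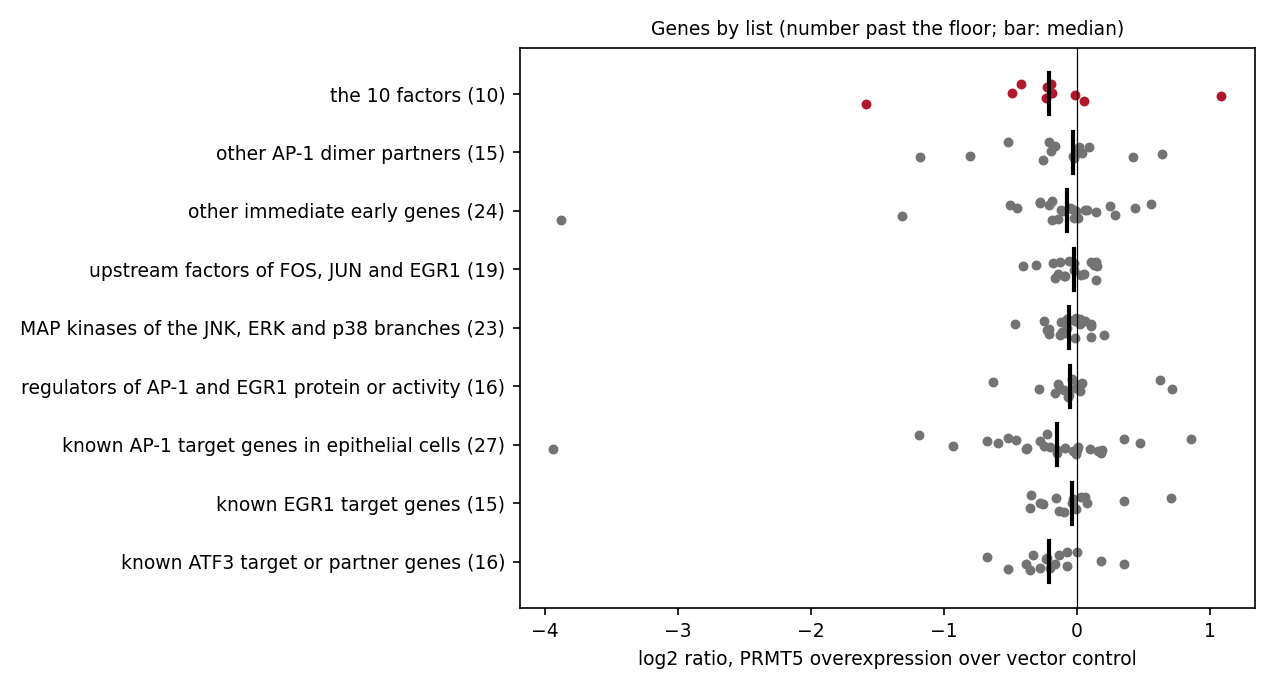
Log2 ratio of PRMT5 overexpression over vector control for each gene past 10 reads (points, spread in height for legibility), by list, with the median as a bar; the 10 factors are in red. Medians run from -0.21 for the 10 factors and for the ATF3 list to -0.02 for the dimer partners and the upstream factors; the far left points are MYC and DCN, and DCN is placed there by 0 reads in PRMT5 overexpression.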

How the data were processed

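RNA-seq of Tu212 cells was analysed with 1 library per group, grouped by the genotype label. Per the submitters' processing notes, which give no roles, the tools included HISAT2 2.1.0, CASAVA 1.8, edgeR and StringTie 1.3.4b, on GRCh38. The sources used here do not say whether strand was kept. The raw counts per gene were used as deposited by the authors. The FPKM values deposited by the authors divide the count by the total count and by 1 length per gene, which equalled the summed length of all distinct exons in GENCODE release 29 (within 1%) in 92.2% of 11471 genes with over 100 reads in both libraries. Overlapping exons of different transcripts thus count repeatedly, so levels between genes were computed from counts and merged exons. All 4 value columns were used.

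Rows of 1 symbol were summed, factors were computed over genes with 10 or more reads in a library (TMM, edgeR 4.0.16, R 4.3.3; 0.990 for PRMT5 overexpression and 1.01 for vector control), and log2 ratios used a prior count of 1. No test was run, because genes are not replicates. The procedure was tested on a simulated pair of libraries drawn with counting error only, so that test does not cover variation between libraries. Shared sequence is the percent of 50-base stretches of the longest transcript that occur in transcripts of other genes. Named genes are the 10 factors, PRMT5, and up to 4 genes per list with the largest log2 ratio at 5 CPM or more in a library; further genes were named after their values were seen. The factors and lists were chosen with earlier results of these data known. Promoter windows are from RefSeq, GRCh38.p14. Python 3.11.15, pandas 2.3.3 and scipy 1.17.1 were used.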

Additional observations from a re-analysis of the deposited data

How the results depend on the processing

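Of 71 recalculated log2 ratios of the 10 factors, 69 stayed within their counting intervals. The settings were DESeq2 1.42.0 size factors, total counts, prior counts of 0.1 and 5, and the row with the most reads per symbol. Further settings were protein-coding genes, sums with exon-sharing genes, and deposited FPKM with a pseudocount of 1. The exceptions, both with FPKM, were ATF3 at 0.673 and MAFF at -0.677, where the pseudocount shrinks low values by construction. On that scale FOS also went from -0.49 to -0.12 and FOSB from -0.42 to -0.05, which their wide intervals still held. JUNB changed sign, between -0.04 and 0.01, and no other factor did among the settings on counts. The counts of factors past 1.5-fold were the same under every setting run. Over all genes, 516 were higher and 344 lower by 2-fold. These counts became 75 and 54 on log2(FPKM + 1), 239 and 210 for protein-coding genes, and 267 and 227 at the prior count of 5. They became 136 and 118 if a floor of 50 reads was set and 2145 and 2872 if none was. Of 56 list medians 1 moved by 0.1 or more, that of the dimer partners, to -0.16 with a floor of 50 reads. Of 28 family shares 22 left their intervals on a scale per length; merged exon length was added after seeing the data. Depth limits FOS and FOSB most. No paired analysis was possible because there was only 1 library a group.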

Other observations

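By deposited FPKM and per kb of merged exons, all 10 factors had the same rank in PRMT5 overexpression, and MAFF and FOSL1 changed places in the vector control. For JUN, JUNB and EGR1, which have 1 annotated transcript each, the length behind the FPKM was the merged exon length. For FOS, FOSB, FOSL1, ATF3 and MAFF it was 2.81, 2.97, 2.73, 2.40 and 2.13 times the merged length, and for FOSL2 and JUND 1.8 and 1.27 times. In the vector control MAFF was the sixth of the 10 factors by FPKM, at 1.24, above ATF3 at 1.20 and FOSL1 at 1.07. Per kb of merged exons, MAFF at 2.62 was the eighth, below FOSL1 at 2.90 and ATF3 at 2.86, though the counting intervals of the 3 overlap. FOS stood at 0.237 FPKM in PRMT5 overexpression and 0.342 FPKM in the vector control, where it had 0.674 and 0.953 CPM per kb of merged exons. The length is the same in both libraries and cancels in a plain ratio of FPKM values, but not in the log2(FPKM + 1) differences of ATF3 and MAFF, where the added 1 weighs more the longer the length.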
